A study of Mus musculus with 9 samples.

Results

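The 8 genes described here are the Bcl2 family members that set the survival threshold of developing lymphocytes: Bcl2, Bcl2l1 (Bcl-xL), Mcl1, Bcl2l11 (Bim), Pmaip1 (Noxa), Bbc3 (Puma), Bax and Bak1. They were chosen by name among 22350 protein-coding genes, and every ChIP-seq peak that overlapped the gene body or the 50 kb on either side of it (mouse build mm9) was assigned to the gene. CTCF was called at 42250 regions in pre-B cells and at 71080 in IL7-cultured pro-B cells, and Rad21 at 30488 in pre-B, 9701 in DN and 36743 in DP cells. Of these, 56, 93, 44, 17 and 66 peaks, in that order, lay in the windows of the 8 genes. Merged across the lists, they formed 117 sites of 83461 in the genome.

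All cells were C57BL/6 and RAG-deficient. Pre-B cells came from the bone marrow of RAG-/-µ+ mice, which carry a rearranged IgM transgene. The pro-B cells were bone marrow cells of RAG1-/- mice grown for 7 days with IL7. The bone marrow donors were 6 to 14 weeks old. DN (CD4-CD8-) thymocytes came from Rag1-/- mice and DP (CD4+CD8+) thymocytes from Rag1-/- mice with a rearranged TCRb transgene, at 4 to 8 weeks. In each case the block in development or the transgene sets the stage, so the stage and the genotype cannot be told apart. Each condition was 1 library, and no difference between cell types could be tested. Peak lists hold no expression, so the labelled cell types could not be checked against markers.

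Bcl2, Bcl2l1 and Mcl1 hold mitochondria intact by binding the pore-forming effectors Bax and Bak1 and the BH3-only proteins Bcl2l11, Pmaip1 and Bbc3, which trigger death when they are free. DP thymocytes depend on Bcl2l1 for survival, whereas DN thymocytes and mature lymphocytes rely more on Bcl2, and Mcl1 is needed at many stages. CTCF is a zinc finger protein that binds a directional DNA motif, and Rad21 is a subunit of cohesin, the ring complex that extrudes chromatin loops and is often halted at CTCF.

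The score in each list grows with sequencing depth, so it was read only as a rank, the percentage of peaks in the same list that scored lower. Ranks in lists of different length are given side by side and were not tested against each other. The lists also stopped at different lowest scores, from 50 for IL7 pro-B CTCF to 86.45 for DN Rad21, and a missing peak means only that none was called. All 8 genes had at least 1 peak in their window in every library. Pmaip1 had none for DP Rad21 with Rad21 lists of equal length (each limited to its 9701 highest-scoring peaks) or with 20 kb flanks and none for DN Rad21 with 20 kb flanks, and Mcl1 had none for DN Rad21 at scores of at least 100. Among all genes, 84.7% had a window peak for pre-B CTCF, 91.0% for IL7 pro-B CTCF, 80.0% for pre-B Rad21, 56.9% for DN Rad21 and 78.2% for DP Rad21. The median number of window peaks in the 8 genes was 6.5, 11, 5.5, 1.5 and 8 in these libraries, and 4, 7, 3, 1 and 3 over all genes. Window length differs between genes, from 104 kb at Mcl1 to 276 kb at Bcl2. At the window edge, the outermost pre-B CTCF peaks of Bcl2l1 lay 24.3 kb past the gene end (score 338) and 15.9 kb upstream (score 69.5), and the next ones outside lay 70.0 kb past the end (score 1005) and 82.4 kb upstream (score 1204). At Bcl2 they lay 25.9 kb past the end and 45.1 kb upstream, and the next ones at 112 kb and 85.5 kb.

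Peaks at the gene start were called in 1 to 5 libraries, depending on the gene. A peak lay within 1 kb of the start in 5 of the 8 genes for pre-B CTCF (22.0% of all genes), in 5 for IL7 pro-B CTCF (33.2%), in 5 for pre-B Rad21 (16.9%), in 1 for DN Rad21 (3.0%) and in 7 for DP Rad21 (29.5%). Bcl2l1 was the member with a start peak in all 5 libraries, a pattern found at 2.61% of all genes, and so the only one with a start peak in all 3 Rad21 libraries (2.68% of all genes). Every member had a start peak in at least 1 library, whereas 54.8% of all genes had none in any. With lists of equal length 6 of the 8 kept one, the DP peaks at Bcl2 and Bax being lost, and with the DP list as long as that of pre-B Rad21 7 did, that at Bax being lost. The share of all genes with a start peak was not counted with these shortened lists. Bcl2 and Bax had a start peak in 1 library each, that of DP Rad21, and Pmaip1 was the gene with none in DP. The grid of start peaks by gene and library gives the ranks.

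**Figure D1:**
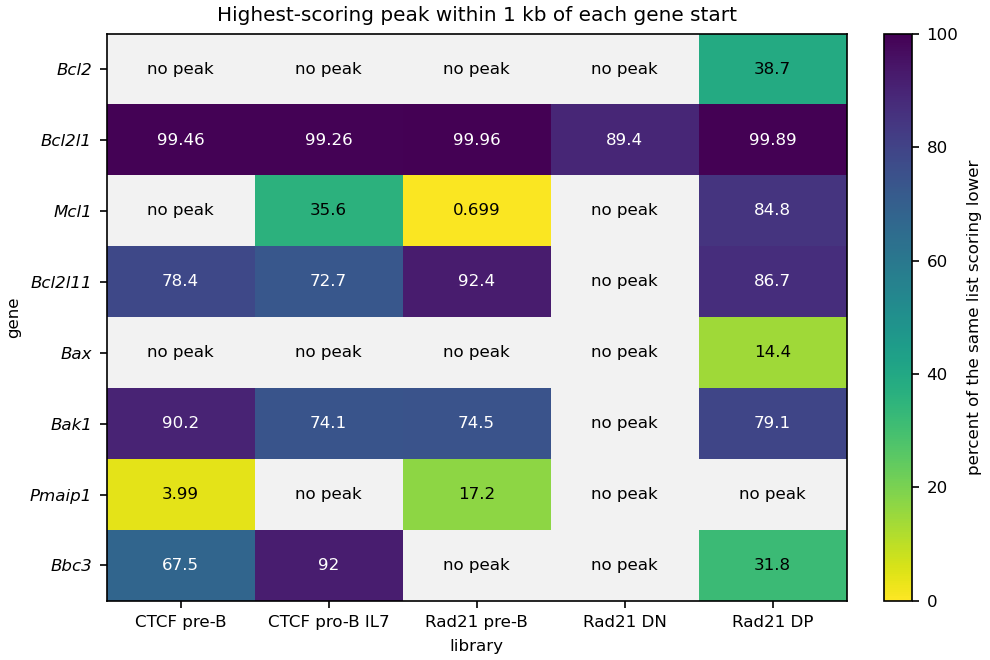
Rank of the highest-scoring peak within 1 kb of each gene start (rows) in the 5 libraries (columns), as the percent of the same list that scored lower, with grey cells where no peak was called. Bcl2l1 was filled in all 5 columns and ranked above 99% of the list in 4 of them, while Bcl2 and Bax had a peak in DP alone.

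Among the anti-apoptotic genes, Bcl2 spans 176 kb of chromosome 1 (108434755 to 108610851, minus strand) and had 15 sites in its window, of which 4 were called in all 5 libraries. These 4 lay 1.36 kb inside the gene, 2.66 kb and 21.2 kb upstream of its start, and 202 kb from the start, which is 25.9 kb past its end. CTCF was not called at the start itself in either B-lineage library. The 2.66 kb upstream site outscored 76.0% of CTCF peaks in pre-B, 84.8% in IL7 pro-B, and 86.8%, 61.4% and 90.0% of Rad21 peaks in pre-B, DN and DP. The site 202 kb away ranked highest of the 4 in pre-B CTCF (91.4%), pre-B Rad21 (87.7%), DN Rad21 (84.0%) and DP Rad21 (96.0%). The site 1.36 kb inside the gene outscored 75.4% of CTCF peaks in pre-B and 63.0% of Rad21 peaks in DN and 24.3% in DP.

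Of the CTCF motifs that the study used, only the consensus found de novo with HOMER, 12 bases long, was searched here, on both strands of each peak and with at most 2 mismatches. The best matches of the 4 Bcl2 sites called in every library are shown to compare their directions. Looping between sites was not measured. The matched bases are in capitals with 9 flanking bases on each side, read 5′ to 3′ on the matched strand (mm9). Each line names the site by the distance of its nearest edge from the gene start. The match of the site 1.36 kb into the gene lay in the coding sequence of Bcl2, on the coding strand, and that of the site 21.2 kb upstream lay in an intron of the neighbouring gene Kdsr.
Bcl2 202 kb, chr1:108408334-108408363, minus strand: tccatctgcGCCCCCTGCAGGaattcacag
Bcl2 1.36 kb, chr1:108608947-108608976, minus strand: gggagatgtCACCCCTGGTGGacaacatcg
Bcl2 2.66 kb upstream, chr1:108613999-108614028, plus strand: gtgaggtccGCCACCTGCTGGttggtgctt
Bcl2 21.2 kb upstream, chr1:108632372-108632401, plus strand: gtgtctgctGCCCCCTATTGGgcccacaga
A plus-strand match of this consensus points to lower coordinates. The far match and the coding match therefore pointed toward the gene start from inside or beyond the gene, and both upstream matches pointed toward it from the other side, so the 202 kb site and the upstream pair faced each other across the gene. Over all CTCF sites of the window, 7 had a match with 1 direction, of which 5 pointed toward the start and 2 away.

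Rad21 at Bcl2 was called at 8 sites in pre-B, 4 in DN and 13 in DP, of 14 in all. All 8 pre-B Rad21 peaks overlapped a pre-B CTCF peak, near the 88.1% of all pre-B Rad21 peaks that did. DP alone called 6 sites, at the gene start (above 38.7% of its list), at 25.5 kb (65.1%), 85.0 kb (52.6%), 100 kb (46.1%) and 165 kb (23.1%) in the long intron, and 196 kb from the start, past the gene end (2.93%). Over the genome 33.6% of Rad21 sites were DP-only, and with lists of equal length none of the 6 remained in the DP list. The intronic sites at 85.0 and 100 kb were CTCF sites in both B-lineage libraries, with low ranks in pre-B (7.97% and 11.2%) and middle ranks in IL7 pro-B (54.6% and 63.8%). Pre-B Rad21 was called there at neither.

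Bcl2l1 lies on chromosome 2 (152593052 to 152657464, minus strand) and had 19 sites, 3 of them called in every library. Its start carried the highest-ranked site of all 8 genes for Rad21 in pre-B and in DP. The pre-B Rad21 peak there was 2136 bp wide and ranked 3rd of its list in a tie of 10 peaks, and the DP peak was 2012 bp wide and ranked 12th in a tie of 28. The pre-B CTCF peak ranked 230th of 42250, the IL7 pro-B CTCF peak ranked 92nd in a tie of 436, and the DN Rad21 peak ranked 1027th of 9701 (above 89.4%). The other sites called in all 5 libraries lay just past the gene end, at 64.4 kb from the start, and at 88.6 kb. The first of these outscored 99.2% of CTCF peaks in pre-B, and 96.9%, 97.0% and 53.4% of Rad21 peaks in pre-B, DP and DN.

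The Rad21 sites of Bcl2l1 that were called in DP alone lay within the gene. Rad21 was called at 7 sites in pre-B, 3 in DN and 13 in DP, of 14 in all, and 7 were called in DP alone (33.6% of all Rad21 sites in the genome were). All 7 lay inside the gene body, from 1.65 to 55.7 kb downstream of the start, and none of the 7 overlapped a CTCF peak of either B-lineage library, as 34.3% of all DP-only sites did. The highest ranked were the site at 1.65 kb, which overlapped an exon (above 86.3% of the DP list), and the intronic site at 14.5 kb (80.9%). The others scored above 56.3% (3.67 kb), 24.1% (13.1 kb), 15.4% (21.2 kb), 52.9% (26.7 kb) and 45.7% (55.7 kb). With lists of equal length these others left the DP list, and the sites at 1.65 and 14.5 kb remained. The share of all DP-only sites that lay inside gene bodies was not counted. At 36.7 kb and 41.5 kb, Rad21 was called in both pre-B and DP, with ranks of 4.50% and 5.61% in pre-B and 79.7% and 55.0% in DP.

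**Figure D2:**
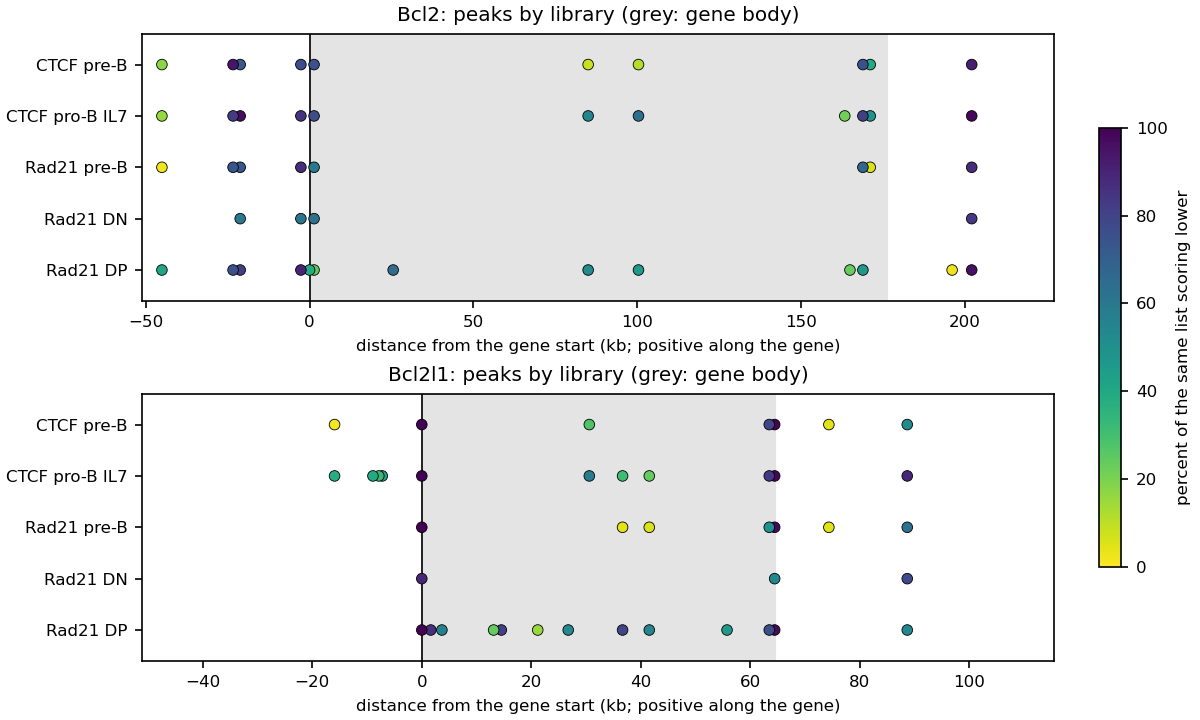
Sites at Bcl2 and Bcl2l1 by distance of the nearest edge of the merged site from the gene start (kb, positive along the gene), one row per library, with the gene body in grey. Each point is a site called in that library, and its colour is the percent of the same list that scored lower. The row of DP Rad21 holds 7 points in the body of Bcl2l1 that no other row shares.

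Of the 12 CTCF sites at Bcl2l1, 4 had a match, and at Bcl2 8 of 11 did. Among all CTCF peaks of the genome, 48.3% in pre-B and 39.0% in IL7 pro-B held one. The match at the start of Bcl2l1 was tied between strands. The site at 63.4 kb, in an intron near the gene end, held the consensus with 0 mismatches, and that at 88.6 kb held it with 2. They are shown to set against the facing matches at Bcl2. Both were on the plus strand and pointed away from the gene start. The third match with 1 direction, in a site called in IL7 pro-B CTCF alone 8.92 kb upstream, was also on the plus strand and pointed toward the start, so 1 of 3 pointed toward it and 2 away.
Bcl2l1 63.4 kb, chr2:152593546-152593575, plus strand: agggtaaagGCCCCCTGGTGGtgaggtcta
Bcl2l1 88.6 kb, chr2:152568349-152568378, plus strand: tccactcgcGCCCCCTCTTGGaagaactgg

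Sequence under the DP-only sites was searched for 3 short motifs in the 300 bases around the midpoint of each peak, on both strands: TGTGGT (Runx), CAGCTG (E protein) and AGGTCA (nuclear receptor half-site), motifs bound by factor families active in thymocytes. Of the 7 DP-only sites at Bcl2l1, 2 held TGTGGT, 3 held CAGCTG and 2 held AGGTCA. Over the 31 DP-only sites of the 8 genes the shares were 12.9%, 29.0% and 19.4%, and over all 15601 DP-only sites of the genome they were 25.4%, 24.0% and 13.8%. The intronic windows at 3.67 and 26.7 kb are shown as the Bcl2l1 windows that held more than 1 of the motifs, and the window at 21.2 kb as the one with 3 copies of CAGCTG, with the motifs in capitals, on the plus strand of mm9. A motif on the other strand appears as its reverse complement.
Bcl2l1 3.67 kb, chr2:152653090-152653389: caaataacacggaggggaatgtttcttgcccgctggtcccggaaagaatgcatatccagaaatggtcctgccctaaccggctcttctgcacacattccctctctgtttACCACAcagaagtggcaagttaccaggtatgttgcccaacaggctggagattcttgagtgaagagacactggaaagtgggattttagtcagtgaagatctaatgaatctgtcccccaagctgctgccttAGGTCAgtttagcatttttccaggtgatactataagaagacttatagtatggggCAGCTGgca
Bcl2l1 21.2 kb, chr2:152635900-152636199: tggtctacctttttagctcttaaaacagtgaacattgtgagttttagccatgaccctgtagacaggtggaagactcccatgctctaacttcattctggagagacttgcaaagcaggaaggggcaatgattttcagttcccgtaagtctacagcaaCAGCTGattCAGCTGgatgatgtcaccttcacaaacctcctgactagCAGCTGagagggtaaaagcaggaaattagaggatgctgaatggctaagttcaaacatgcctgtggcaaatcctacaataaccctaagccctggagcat
Bcl2l1 26.7 kb, chr2:152630251-152630550: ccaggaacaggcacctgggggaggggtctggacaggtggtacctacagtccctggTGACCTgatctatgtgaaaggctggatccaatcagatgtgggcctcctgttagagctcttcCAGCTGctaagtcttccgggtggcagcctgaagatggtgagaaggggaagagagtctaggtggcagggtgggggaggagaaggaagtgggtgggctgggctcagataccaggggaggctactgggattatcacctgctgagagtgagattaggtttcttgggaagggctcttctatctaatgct
The window at 14.5 kb, the DP-only intronic site that ranked highest, held none of the 3. Outside that window, its DP peak held the CTCF consensus with 2 mismatches, on the plus strand. Over the genome 17.1% of DP-only sites held such a match, and CTCF in DP was not measured here. A match is a description of the letters and not a bound site.

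Mcl1, a short gene of 4.46 kb on chromosome 3 (95462643 to 95467099, plus strand), had 10 sites. At its start, Rad21 was called in DP above 84.8% of the list and in pre-B above 0.699%, near the foot of that list, and CTCF was called in IL7 pro-B above 35.6% and not in pre-B. The IL7 pro-B CTCF peak and the pre-B Rad21 peak there did not overlap each other and were joined by the DP peak. The strongest CTCF site of the window began 16.5 kb from the gene start and was called in all 5 libraries. Its CTCF peak outscored 99.2% of the others in pre-B. Its Rad21 calls lay in 2 places under the single CTCF peak. The nearer Rad21 peaks outscored 69.2%, 12.1% and 90.8% of peaks in pre-B, DN and DP, and the DN peak was the only one of the window. The farther ones, 18.0 kb from the start, outscored 41.6% in pre-B and 73.1% in DP, with none in DN. The consensus was found with 0 mismatches, pointing away from Mcl1, under these farther peaks, in a coding exon of Adamtsl4, and beyond the end of the nearer ones.
Mcl1 site from 16.5 kb, chr3:95480842-95480871, minus strand: ctccacactGCCCCCTGGTGGtacaggccc

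The BH3-only genes differed from one another. Bcl2l11, on chromosome 2 (127951774 to 127988283, plus strand), had 12 sites. CTCF at its start outscored 78.4% of peaks in pre-B and 72.7% in IL7 pro-B, and Rad21 outscored 92.4% in pre-B and 86.7% in DP, with no DN peak. The site 2.37 kb upstream, in an intron of Acoxl, was called in all 5 libraries, with Rad21 above 78.6% of peaks in pre-B, 52.7% in DN and 95.5% in DP. A second site common to all 5 libraries, 46.6 kb upstream, ranked at 1.22% for CTCF in pre-B and at 83.1% for Rad21 in DP.

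Bbc3, on chromosome 7 (16894965 to 16903554, plus strand), had a CTCF peak at its start in pre-B (above 67.5%) and in IL7 pro-B (above 92.0%). It is shown because it was the start peak of the 8 genes that held the consensus with 0 mismatches, in an annotated intron. Rad21 was called at this start in DP (31.8%), and not in pre-B or DN. The highest-ranked site of the window lay 13.8 kb upstream and was called in all 5 libraries, above 97.0% of pre-B CTCF, 97.8% of pre-B Rad21, 93.0% of DN Rad21 and 97.4% of DP Rad21 peaks. This site and the start site had matches that faced each other.
Bbc3 start, chr7:16895467-16895496, plus strand: ctcgcccgcGCCCCCTGGTGGctagtgaga
Bbc3 13.8 kb upstream, chr7:16880268-16880297, minus strand: gcgcttgctGCCCCCTAACGGccaaagatg

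Pmaip1, on chromosome 18 (66618258 to 66625204, plus strand), had the fewest sites, 8. Its start carried low-ranked peaks in pre-B alone, for CTCF above 3.99% and for Rad21 above 17.2% of the list. It was the only member with fewer Rad21 window peaks in DP (1) than in pre-B (3). The single DP peak, 47.6 kb upstream, was called in all 5 libraries, with ranks of 90.1% for pre-B CTCF, 94.0% for pre-B Rad21, 36.1% for DN Rad21 and 71.5% for DP Rad21.

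Of the effectors, Bax on chromosome 7 (52717065 to 52722268, minus strand) had 14 sites and a start peak in DP Rad21 alone, above 14.4% of the list. The site 3.74 kb upstream was called in all 5 libraries, above 74.8% of pre-B CTCF, 72.5% of pre-B Rad21, 67.3% of DN Rad21 and 75.2% of DP Rad21 peaks. The highest-ranked pre-B CTCF site of all 8 windows was 31.6 kb from the Bax start, at the start of Gys1, at 99.7% in pre-B, while its Rad21 peaks ranked at 63.9% in pre-B and 8.23% in DP.

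Bak1, the other effector, on chromosome 17 (27156755 to 27165954, minus strand), had the most sites, 27, and 24 IL7 pro-B CTCF peaks, more than 99.2% of all genes. With CTCF lists of equal length (42250 peaks), or with 20 kb flanks, it had 14. Its start was called for CTCF in pre-B (90.2%) and IL7 pro-B (74.1%) and for Rad21 in pre-B (74.5%) and DP (79.1%). The site 3.18 kb upstream was called in all 5 libraries, at 94.0% in pre-B CTCF, 96.4% in pre-B Rad21, 70.5% in DN Rad21 and 96.3% in DP Rad21, and its match pointed away from Bak1.
Bak1 3.18 kb upstream, chr17:27169978-27170007, minus strand: tgttctgctGCCACCTGGTGGtcaatgctt

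**Figure D3:**
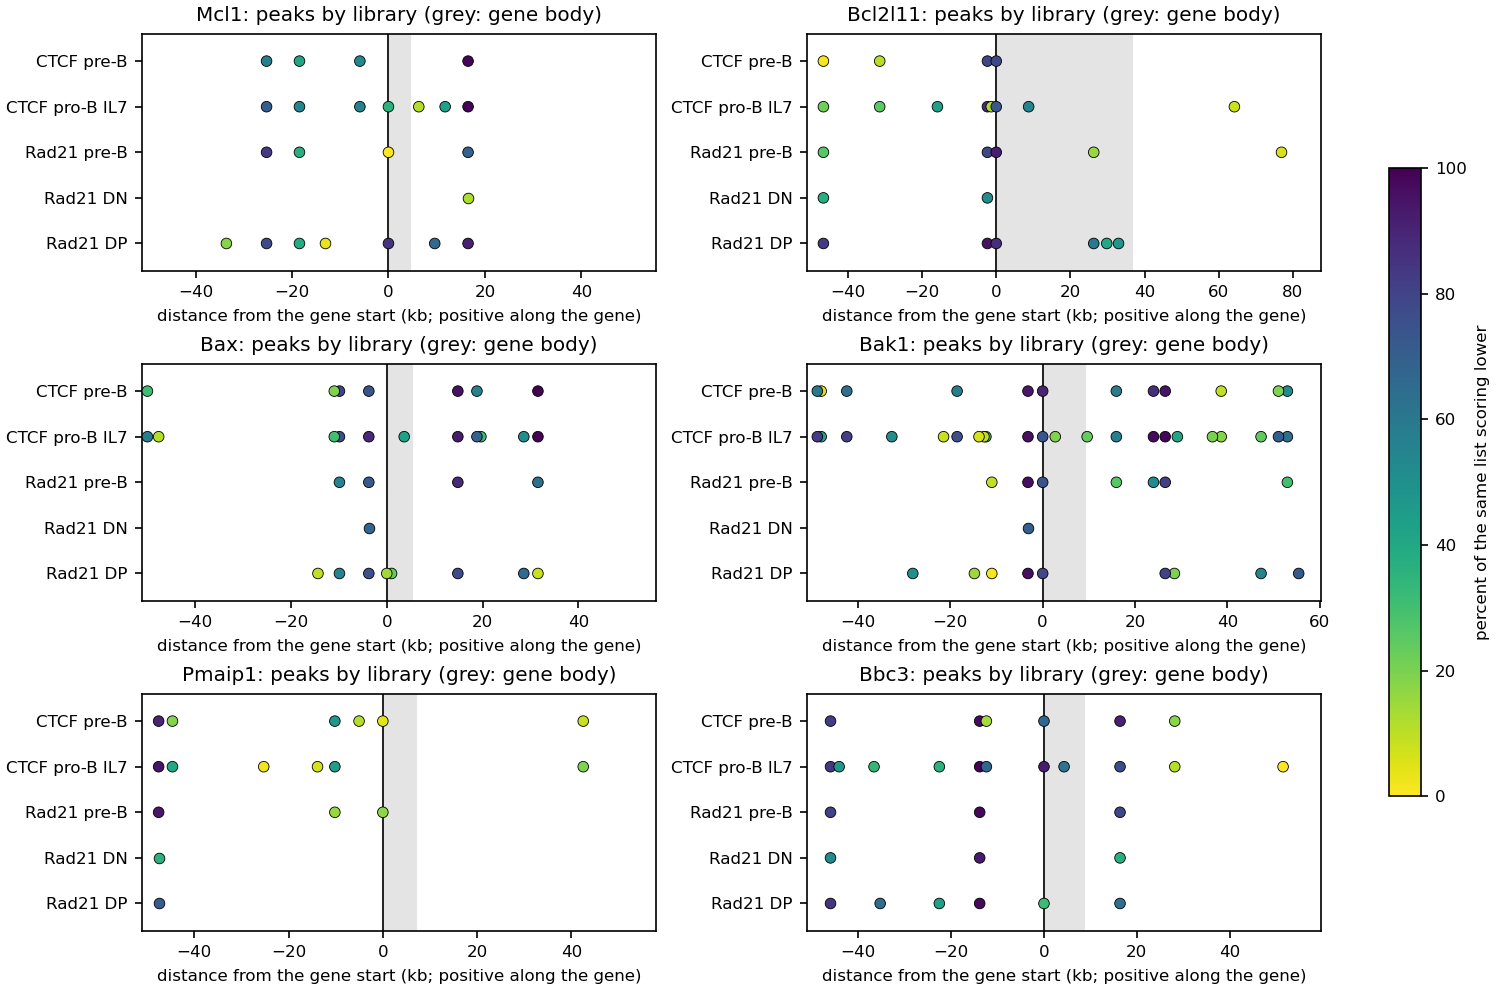
Sites at Mcl1, Bcl2l11, Bax, Bak1, Pmaip1 and Bbc3 by distance of the nearest edge of the merged site from the gene start (kb, positive along the gene), one row per library, coloured by the percent of the same list that scored lower, with the gene body in grey. Mcl1, Bax, Bak1 and Pmaip1 each had 1 site called in DN, and it was called in the other 4 libraries too.

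With the full lists, of which that of DN is the shortest, every Rad21 site of the 8 genes called in DN was also called in pre-B and DP. With lists of equal length this held for 11 of the 16 sites called in DN. All 17 DN peaks overlapped a B-lineage CTCF peak (98.4% of all DN peaks did) and a DP Rad21 peak (94.5% genome-wide). The 3 Rad21 lists merged into 73 sites, of which 16 (21.9%, exact 95% interval 13.1 to 33.1) were called in pre-B, DN and DP against 18.7% of all Rad21 sites. No site was called in DN alone (0.310% genome-wide), in DN and pre-B without DP (0.831%) or in DN and DP without pre-B (0.940%), and each 0 of 73 allows a share of up to 4.93% by the exact interval. With equal lists these classes held 2, 2 and 1 of 27 sites (13.0%, 8.94% and 7.90% of all sites). Pre-B and DP shared 18 sites (24.7%, 15.3 to 36.1; 25.1% genome-wide). DP alone called 31 (42.5%, 31.0 to 54.6), beside 33.6% of all sites, and pre-B alone called 8 (11.0%, 4.85 to 20.5), beside 20.6%. Sites of 1 gene share a locus, and intervals cover counting error only.

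**Figure D4:**
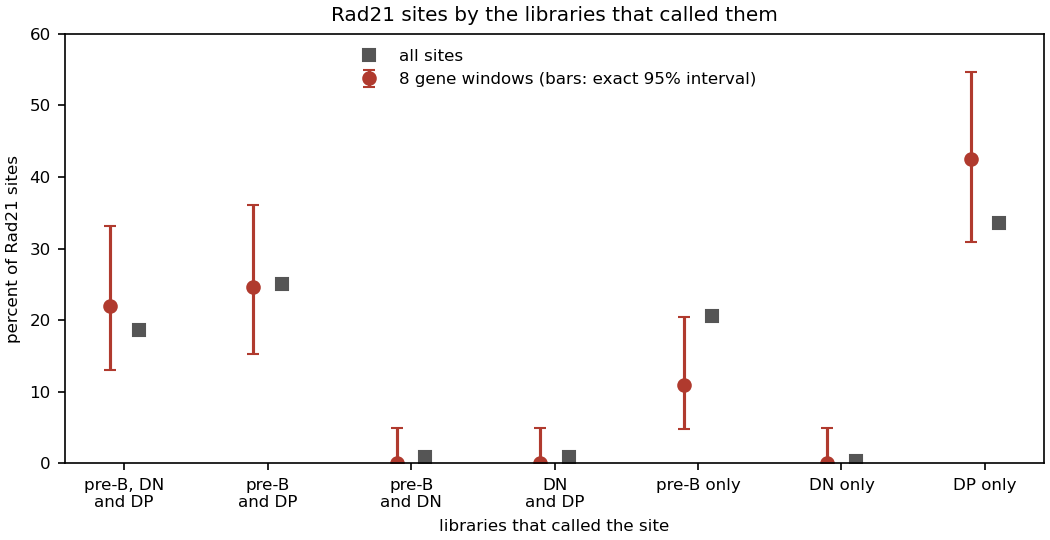
Percent of Rad21 sites (vertical axis) called in each combination of the pre-B, DN and DP libraries (horizontal axis), for the 73 sites of the 8 gene windows (circles, with exact 95% intervals) and for all 46478 Rad21 sites (squares). The interval of the 8 genes holds the value for all sites in every class but pre-B only, where it ends at 20.5% and all sites stand at 20.6%.

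Fewer of the DP-only sites than of the sites called in all 3 Rad21 libraries lay on CTCF. Of the 31 DP-only sites, 7 (22.6%, 9.59 to 41.1) overlapped a B-lineage CTCF peak, against 34.3% genome-wide, and all 16 sites called in pre-B, DN and DP did, against 99.9%. No CTCF library of thymocytes was used here, so CTCF at these sites in DP was not measured. The consensus was found in 6 of 31 DP-only sites (19.4%, against 17.1% of all such sites) and in 12 of the 16 sites called in all 3 (75.0%, 47.6 to 92.7, against 62.6%). Within pre-B, 35 of 56 CTCF peaks (62.5%, 48.5 to 75.1) overlapped Rad21, beside 63.5% of all, and 28 of 56 (50%, 36.3 to 63.7) held the consensus, beside 48.3% of all. The neighbouring sequence of the same length held it in 10.7%. These shares were near the genome-wide ones, as were those of CTCF between the B-lineage libraries: 53 of 56 pre-B peaks were called in IL7 pro-B (94.6%, 96.0% of all) and 58 of 93 IL7 pro-B peaks in pre-B (62.4%, 58.6% of all).

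Overlap was also counted from each side of the Rad21 lists. Of 44 pre-B Rad21 peaks, 37 (84.1%, 69.9 to 93.4) lay on pre-B CTCF, beside 88.1% of all, and 36 (81.8%, 67.3 to 91.8) were called in DP, beside 67.3% of all. Of 66 DP Rad21 peaks, 35 (53.0%, 40.3 to 65.4) were called in pre-B, beside 56.3%, and 40 (60.6%, 47.8 to 72.4) lay on B-lineage CTCF, beside 69.2%. Of 56 pre-B CTCF peaks, 31 (55.4%, 41.5 to 68.7) carried Rad21 in DP, beside 52.0%, and 16 (28.6%, 17.3 to 42.2) carried it in DN, beside 22.0%.

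Rad21 window counts were higher in DP than in pre-B at 7 of the 8 genes, beside 38.3% of all genes, and lower at 1, beside 27.4%. No member had Rad21 in its window in DP and none in pre-B (3.18% of all genes) or the reverse (5.01%). The DP list is the longer. With the DP list limited to the length of the pre-B list, an alternative chosen after seeing the data, 6 genes had more in DP (27.7% of all genes) and 2 had fewer (37.1%). When each Rad21 list was limited to its 9701 highest-scoring peaks, 3 genes had more in DP (17.8% of all genes), 2 had fewer (23.1%) and 3 were equal. Bcl2 then had 4 peaks in each of pre-B, DN and DP, while Bcl2l1 had 2, 3 and 6. The surplus of 4 at Bcl2l1 was larger than that of 99.1% of all genes, and with the full lists the surplus of 6 was larger than 95.2%. In the equal lists 5 sites were called in DP alone, 4 at Bcl2l1 (1.65, 14.5, 36.7 and 63.4 kb from the start) and 1 at the start of Mcl1. Of these 5, 2 were also DP-only in the full lists, at 1.65 and 14.5 kb of Bcl2l1, and 3 had a pre-B call that fell outside the shortened pre-B list. Bcl2 and the other 5 genes had none. The DP-only share was then 18.5% (6.30 to 38.1) beside 15.6% of all sites, and no pre-B-only site was left of 27 sites, which allows up to 12.8% by the exact interval, beside 14.8%. The share called in pre-B, DN and DP was 40.7% (22.4 to 61.2), beside 33.2%, and that called in pre-B and DP without DN was 22.2% (8.62 to 42.3), beside 6.50%.

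**Figure D5:**
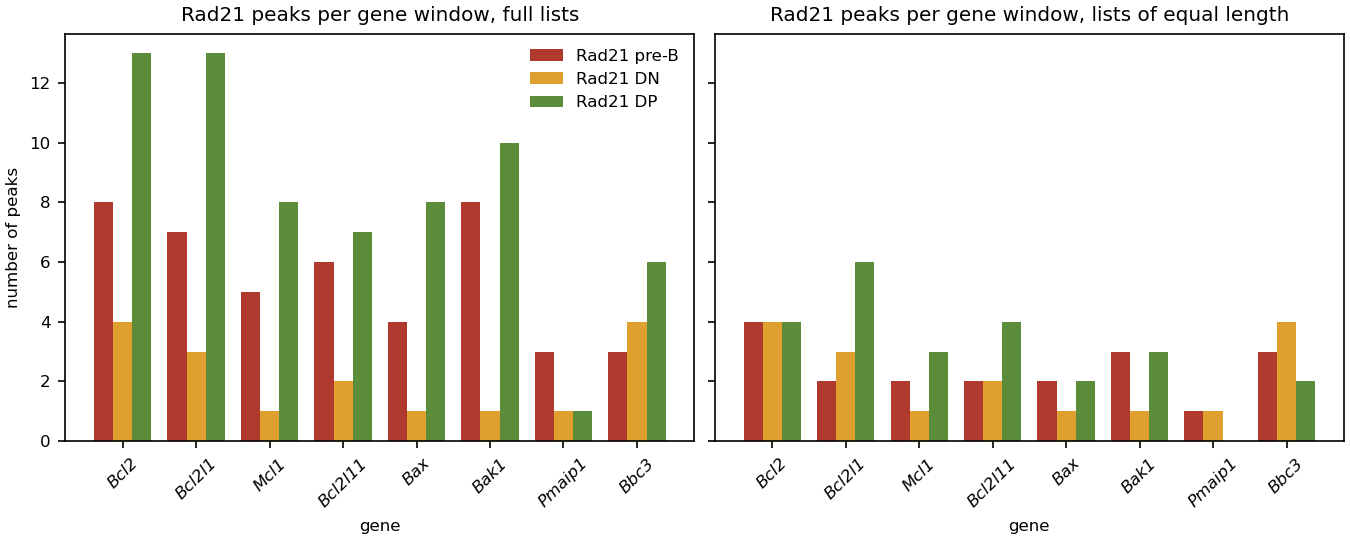
Number of Rad21 peaks in the window of each gene (vertical axis) for pre-B, DN and DP, with the full lists (left) and with each list limited to its 9701 highest-scoring peaks (right). DP exceeded pre-B at 7 genes on the left and at Bcl2l1, Mcl1 and Bcl2l11 on the right.

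Sites called in all 5 libraries numbered 16 of 117, beside 10.3% of all sites, and 14 of the 16 (82 of all 117) were upstream or downstream of the gene, 1 at a start (Bcl2l1) and 1 in an exon (Bcl2).

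Other genes of the pathway were counted in the same way. Of 15 further Bcl2 family genes, start peaks were called at 3 for pre-B CTCF, 5 for IL7 pro-B CTCF, 4 for pre-B Rad21, 1 for DN Rad21 and 8 for DP Rad21, beside the 22.0%, 33.2%, 16.9%, 3.0% and 29.5% of all genes. Bok and Bcl2l13 had a start peak in 4 libraries, and Bok, a Bax-like effector, held the only DN one. Of 11 genes that act downstream of the mitochondrion or regulate the pathway, start peaks were called at 3, 7, 3, 0 and 8 in the same order. Htra2, a protease released from mitochondria, and Trp53, which induces Bbc3 and Pmaip1, had one in 4 libraries.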

How the data were processed

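ChIP-seq for CTCF and Rad21 was done with 1 library per condition, and each was compared by the authors with an input of the same cells (pre-B CTCF and Rad21 shared 1). Per the labels and methods, reads were aligned to mm9 with Bowtie (version 0.12.9 in the submitters' processing notes), allowing up to 2 mismatches and 3 locations, and peaks were called per library with MACS 1.4.2 at a false discovery rate of 1% or less. The deposited values are a peak score per region, used here only as a rank within 1 list. Read depth was not given in the files. The list lengths and lowest scores are given instead, and they are not a measure of it.

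Genes were those of the NCBIM37 (mm9) annotation. A peak counted with 1 bp of overlap. Sites were merged overlapping peaks. Start peaks lay within 1 kb of the 5′ end of the gene. Analyses used Python 3.11.15, numpy 2.4.6, scipy 1.17.1 and samtools 1.23.1, and the overlap and motif code was tested on simulated data. Shares carry exact Clopper-Pearson 95% intervals. With no replicates, no test between conditions was made. The named genes are the 8 members, genes starting within 1 kb of their sites, and up to 6 of the pathway lists. Adamtsl4, Acoxl and the Kdsr intron were named after their sites were seen. The members and lists were chosen with earlier results of these data known. No sequence is shown for Pmaip1.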

Additional observations from a re-analysis of the deposited data

How the results depend on the processing

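No paired analysis was possible because each condition was 1 library, and no result comes from a test. The lists differ in length. With a common length (42250 for CTCF, 9701 for Rad21), window peaks fell to 57 for IL7 pro-B CTCF, 19 for pre-B Rad21 and 24 for DP Rad21, genes with a start peak to 3 for pre-B Rad21 and 4 for DP Rad21, the share of sites called in all 3 Rad21 libraries rose to 40.7% (33.2% of all sites), that in DP only was 18.5% (15.6%) and in pre-B only 0 (14.8%), and 79.5% of pre-B CTCF peaks (78.9% of all) overlapped Rad21 where both pre-B lists were limited to 30488. Limiting the DP list to 30488, chosen after seeing the data, left 57 DP window peaks and 24 DP-only sites of 66 (36.4%, beside 26.5% of all sites). With 20 kb flanks, pre-B CTCF, IL7 pro-B CTCF and DN Rad21 had 36, 60 and 11 window peaks. With 100 kb flanks the 5 libraries had 97, 157, 78, 27 and 108. A start region of 2.5 kb gave 2 genes for DN Rad21, and a score of at least 100 gave 3 for pre-B Rad21. The share of all genes with a start peak was counted only with the full lists and the 1 kb region. The start counts under other settings therefore have no share of all genes to be read against. Of the 40 window counts of single genes, 20 moved by over 1.5 times with equal lists, 14 with 20 kb flanks, 23 with 100 kb flanks and 9 with scores of at least 100. The consensus share was 12.5% at 1 mismatch, beside 16.1% of all pre-B CTCF peaks, and 94.6% at 3, beside 91.2%. Neighbouring sequence of the window peaks held it in 5.36% at 1 mismatch and 67.9% at 3. For all pre-B CTCF peaks, neighbouring sequence held it in 0.947% and 50.1%. The other alternatives, among them 50% overlap, peak midpoints and the start of any transcript, left these values within the range set for no change. The causes were not tested. Without replicates or read counts, differences between cell types cannot be told apart from differences between libraries.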
